A study of Mus musculus with 64 samples.

Results

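Stretches of 10 kb of the mouse genome that received PiggyBac (PB) transposon insertions in several tail samples and in few tumours are described here. A window was chosen where at least 4 of 12 PB tails and at most 2 of 30 PB tumours had an insertion, on the autosomes without chromosome 14. That chromosome was left out for all samples, and the labels do not give the donor chromosome of a sample. The rule kept 159 of 111061 windows that held an insertion in any PB sample, which is 0.143% of them and 0.0699% of the 227565 windows with sequence. The windows were thus selected on the number of PB tails and PB tumours with an insertion, so every comparison of PB tails with PB tumours inside them is a description.

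The samples came from 64 mice, 1 sample per mouse, in 4 groups. PB tails (n = 12) and PB tumours (n = 30) came from mice with the PB transposase knocked into Rosa26 and an ITP transposon array. Sleeping Beauty (SB) tails (n = 11) and SB tumours (n = 11) came from mice with the SB transposase at Rosa26, crossed with the ITP1-C or ITP2-M line on the Blm m3 background. The transposase was constitutive in both systems. All mice had a mixed strain background. The paper does not state the Blm genotype of the PB mice, so whether the systems differed in it is not known. The tumours were diffuse large B cell lymphomas, and the tail was the control tissue. The labels give neither the ITP line nor the age of a sample, and no tail shared a mouse with a tumour. A tail is skin, bone, cartilage, tendon, muscle, vessels and blood together, and the cells that carried an insertion cannot be told apart. No transcripts were measured, so the tissue labels could not be set against expressed marker genes.

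PB and SB are cut-and-paste transposons. PB inserts at the tetranucleotide TTAA, and SB at the dinucleotide TA. Both systems depart from a uniform distribution, and PB is known to favour open chromatin and the surroundings of gene starts. In a lymphoma, an insertion that gives a B cell an advantage is carried by many cells of the clone, while a tail holds many unrelated cells. In bulk tissue, more cells with an insertion and a site that is chosen more often cannot be told apart.

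The 782 PB tail insertions of the windows lay at 653 distinct sites. The sites hit in at least 4 tails are shown because they are the points where different mice shared not only a window but the same bases. These are all such sites of the windows. Capitals mark the TTAA, and each run holds 20 bases on either side, read on the plus strand of GRCm38 (mm10).
Notch1 intron, 6 tails, chr2:26500875-26500918: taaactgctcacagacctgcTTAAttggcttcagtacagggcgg
Bcl2 intron, 4 tails, chr1:106603318-106603361: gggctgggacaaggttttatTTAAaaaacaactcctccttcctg
near Gm6958, 4 tails, chr16:55951226-55951269: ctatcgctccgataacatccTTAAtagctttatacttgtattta
nearest coding gene Ets2, 4 tails, chr16:95668917-95668960: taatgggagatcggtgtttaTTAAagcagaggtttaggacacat
Notch1 intron, 4 tails, chr2:26464085-26464128: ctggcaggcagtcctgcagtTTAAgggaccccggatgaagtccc
before the start of Notch1, 4 tails, chr2:26508425-26508468: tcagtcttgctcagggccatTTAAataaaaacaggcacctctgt
nearest gene Bpnt2, 4 tails, chr4:4834086-4834129: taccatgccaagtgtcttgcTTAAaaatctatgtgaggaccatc
nearest coding gene Mctp2, 4 tails, chr7:72499217-72499260: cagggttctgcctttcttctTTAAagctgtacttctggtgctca
The first of these sites, in Notch1, was hit in 6 tails with 21 to 188 reads (median 55.5), 4 times on the plus and 2 times on the minus strand, and in 1 PB tumour. Of the other sites shown, the one near Gm6958 was also hit in 2 PB tumours and the one nearest to Mctp2 in 1. The site nearest to Ets2 was hit on the minus strand in all of its 4 tails, and every other site shown was hit on both strands. No SB sample had an insertion within 5 bases of any of them. Sample names come in a joined and a separated form, and whether this marks a batch is not stated. The first Notch1 site was hit in 1 tail with a joined name and 5 with separated names. The Bcl2 site and the Notch1 site at chr2:26464085-26464128 were hit only in tails with separated names. The remaining sites were hit in tails of both forms. Whether the sharing of sites follows the name form was not tested.

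Recurrence at the same bases was more frequent in the chosen windows than over all PB tail insertions, which include those of the windows. Of their 653 sites, 97 (14.9%) were hit in at least 2 tails, against 845 of the 47612 sites of all PB tail insertions (1.77%). A window needs several tails to be chosen, so the rule itself favours such sites. How much of this gap follows from the rule was not tested. Of the 97 sites, 75 were hit in 2 tails, 14 in 3, 7 in 4 and 1 in 6, and 60 were hit on both strands. In 78 windows every insertion had a site of its own, and 81 windows held a site hit in at least 2 tails. The letters next to the TTAA were counted as well. A T before and an A after it (TTTAAA, which reads the same on both strands) stood at 29 of the 97 sites (29.9%), at 127 of the 552 TTAA sites hit in 1 tail, at 18.1% of all 9842 TTAA sites of the windows and at 16.5% of all TTAA sites of the kept chromosomes. At PB tail sites outside the windows the share was 23.2%. The GC content within 20 bases was 43.5% at the sites hit in at least 2 tails and 37.7% over all TTAA sites of the windows.

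Most windows lay at the lower limit of the rule. Of the 159 windows, 115 were hit in 4 tails, 30 in 5, 12 in 6, 1 in 8 and 1 in 10. No PB tumour hit 61 of them, 1 tumour hit 54 and 2 tumours hit 44. Just outside the rule, 666 windows were hit in 3 tails and at most 2 tumours, and 39 windows were hit in at least 4 tails and 3 tumours. A further class, used below for comparison, was hit in at least 4 tails and at least 3 tumours and held 149 windows. Windows lay on all 18 chromosomes used, 2 to 16 on each, and joined into 140 loci when windows less than 100 kb apart were merged. Only 12 loci held more than 1 window, with 31 windows in all.

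**Figure D1:**
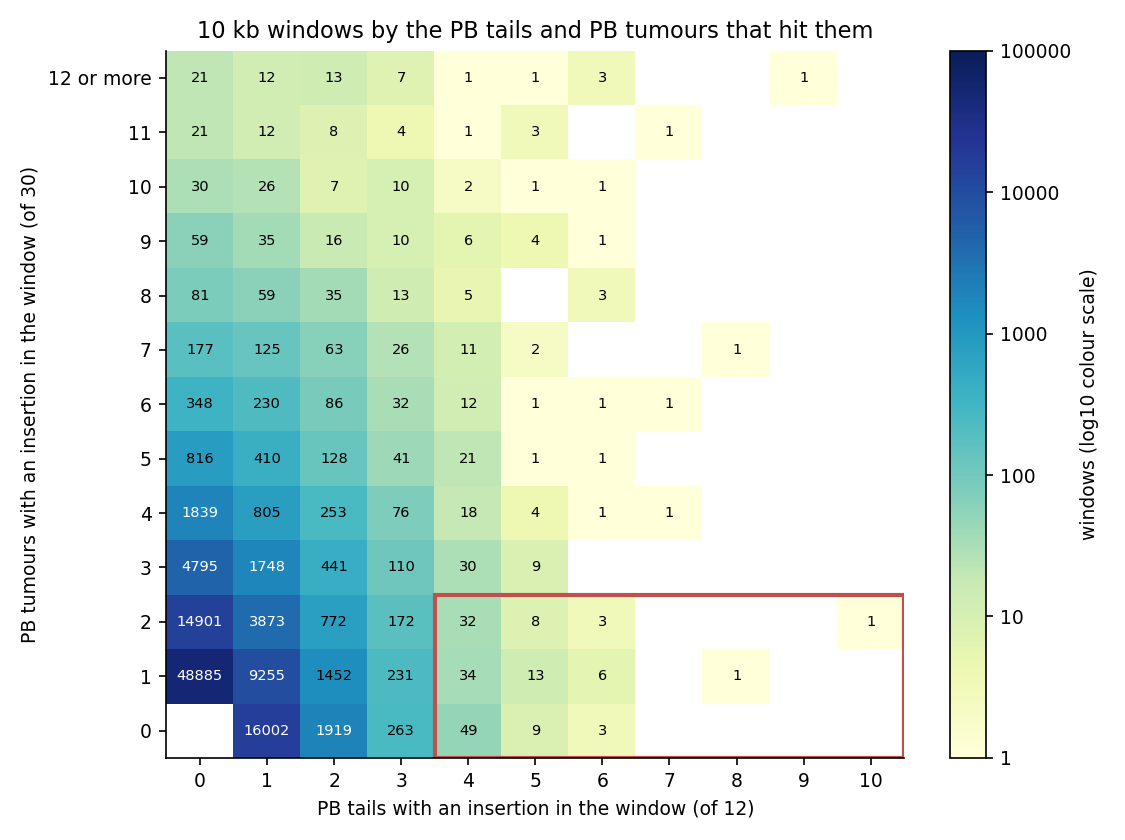
Number of 10 kb windows by the PB tails (x axis, of 12) and the PB tumours (y axis, of 30) with an insertion in them; the colour is on a log10 scale and the red box marks the chosen windows. The 2 windows farthest to the right in the box, hit in 8 and 10 tails, both overlap Notch1.

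Every PB tail contributed. The number of chosen windows hit was 37 in the tail with the fewest, 61 in the median and 87 in the tail with the most, and the insertions per tail ran from 2060 to 7423. The 3 tails with the most insertions hit the most windows. Leaving out PB tail 4 (7423 insertions) or PB tail 8 (6842 insertions) left 97 and 105 windows. The share of a tail's insertions that lay in the windows was 1.27% at the lowest, 1.69% at the median and 2.36% at the highest. In PB tumours it ran from 0.0210% to 0.321%, with a median of 0.0978%. The groups did not overlap, as the rule makes likely. Sample names were written in 2 forms, joined or separated, which may mark a batch. The 5 tails with joined names had 1.27% to 2.36% of their insertions in the windows and the 7 with separated names 1.42% to 2.14%. Tails of both forms hit 144 windows, and 15 windows were hit in tails with separated names only.

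**Figure D2:**
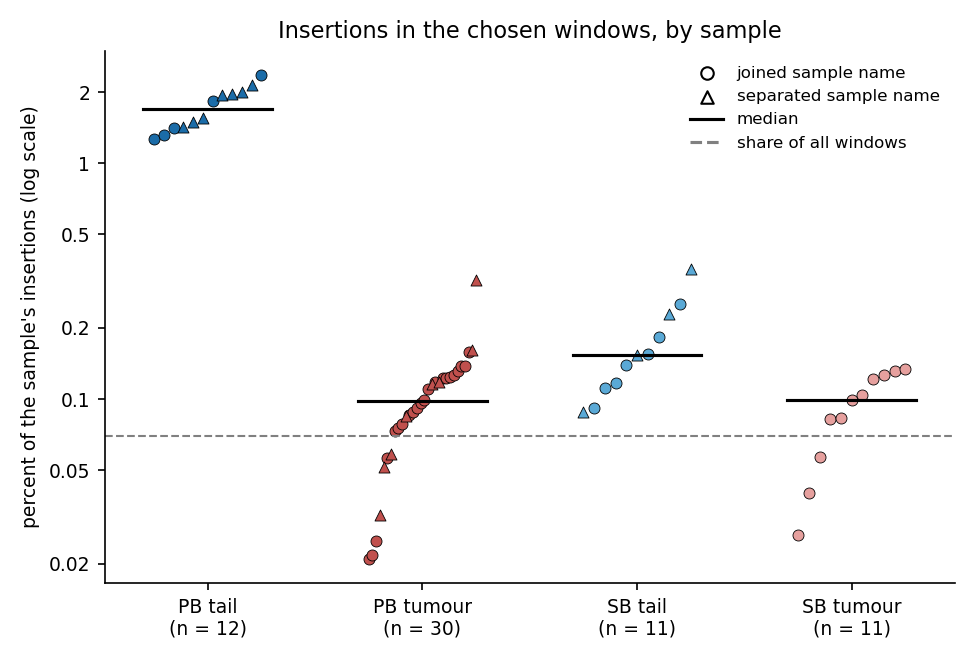
Percent of each sample's insertions that lay in the 159 windows (y axis, log scale) for the 4 groups; circles and triangles are samples with joined and separated names, black lines are medians, and the dashed line is the share of the windows among all windows. PB tails lie between 1.27 and 2.36, above all other samples by construction, and SB tails and SB tumours overlap.

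The number of reads per insertion was not used by the rule. The tail insertions of the windows had a median of 24 reads (quartiles 8 and 51, highest 228), against 21 reads for tail insertions elsewhere. Tail by tail, the median in the windows ran from 9 to 49 reads, and it was above the median of the whole tail in 6 tails, below it in 5 and equal to it in 1. The highest tail insertion outside the windows had 15231 reads. The 152 PB tumour insertions in the windows had a median of 6.5 reads, against 6 elsewhere. PCR reads without molecular identifiers are not a count of cells.

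Insertions of the windows lay on both strands. Of the 782 tail insertions 374 were on the plus strand (47.8%) and 408 on the minus strand. Relative to the gene they hit, 231 had the orientation of the gene and 279 the opposite one (45.3% in gene orientation), against 49.4% for tail insertions elsewhere. In 141 windows both strands were hit and in 18 only 1 strand.

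The rule did not use genes. A gene overlapped 132 of 159 windows (83.0%), against 59.6% of all windows and 66.5% of windows with an insertion in any PB sample. A gene started in 52 windows (32.7%), against 16.1% and 18.2%. In windows hit in no PB tail and at least 4 PB tumours the values were 89.6% and 26.3%. In the comparison class of at least 4 tails and at least 3 tumours they were 98.7% and 58.4%. Of the tail insertions in the windows 70.3% lay in a gene and 32.2% within 5 kb of a gene start, against 60.8% and 23.4% elsewhere. The share in genes ran from 64.0% to 75.3% between tails and was above that of the tail as a whole in 12 of 12 tails. All tails were scored on the same windows, which these tails chose, so they are not independent replicates of this share. Exons held 85 of the 782 insertions (10.9%, against 6.42% elsewhere), and coding sequence held 6. The windows had a median of 61 TTAA sites and a GC content of 42.9%, against 57 sites and 41.4% for all windows.

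Notch1, the receptor of the Notch pathway that directs both T cell commitment and the differentiation of the epidermis, was the locus with the most tail insertions. The gene lies on the minus strand at chr2:26457902-26503822 (GRCm38), and 4 chosen windows overlap it. The window chr2:26500000-26509999, with the first exon and the sequence before it, was hit in 10 of 12 PB tails and 2 of 30 PB tumours. The window chr2:26460000-26469999, with the 3′ part of the gene, was hit in 8 tails and 1 tumour, and the windows chr2:26490000-26499999 and chr2:26470000-26479999 were hit in 6 and 4 tails and in 1 and 0 tumours. Together the 4 windows held 51 PB tail insertions at 29 sites, at least 1 in each of 12 tails (lowest 1, median 3.5, highest 8). In PB tumours they held 5 insertions, in 3 of 30 tumours. Tails of both name forms were hit, 5 of 5 with joined and 7 of 7 with separated names.

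The SB samples had no part in choosing the windows, and there Notch1 stood apart as well. The 4 windows held 36 SB tail insertions, at least 1 in each of 11 SB tails (lowest 1, median 4, highest 6), and none in 11 SB tumours. The 11 SB tails and the 11 SB tumours did not overlap. Over the gene body, SB tails had 40 insertions in 11 of 11 samples and SB tumours had 0 of their 43848 insertions. With a floor of 3 insertions over the SB tumour group in place of the 0 seen, the rate per insertion in Notch1 was at least 11.5-fold higher in SB tails. The SB tail count was taken as exact there, and its spread between tails was left out. In the edgeR quasi-likelihood test on insertions per gene, the log2 difference between tails and tumours was 4.83 (SE 0.78, adjusted p = 3.07e-07). The SE here and below was calculated back from the F statistic of the test. The difference is a fitted value that depends on the count of 0 in the tumours and is no bound. When each sample was scored only for the presence of an insertion, the gene did not pass (log2 3.08, edgeR adjusted p = 0.15). All 11 SB tumours had joined sample names, while 7 SB tails had joined and 4 had separated names. The name form is thus uneven between tails and tumours in every SB comparison. With joined names only, the log2 difference of the gene was 4.62 (edgeR adjusted p = 1.79e-05). Of 154 genes that overlap a chosen window, 31 had at least 10 SB insertions and were tested, and Notch1 alone passed, where 0.922% of the 1193 genes tested passed in either direction, 0.168% in the direction of the tails and 0.754% in that of the tumours.

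Few windows could be tested on their own in SB. A window of 10 kb needed 10 insertions over the 22 SB samples, and 1 of the 159 windows had them, among 23 windows in the whole fit. That window was chr2:26460000-26469999 of Notch1, hit in 10 of 11 SB tails with 24 insertions and in 0 of 11 SB tumours. Its adjusted p was 1.07e-04 in edgeR (log2 difference 4.11, SE 0.65), where 34.8% of the 23 windows passed in either direction, 4.35% in the direction of the tails and 30.4% in that of the tumours. With the same floor, and the tail count again taken as exact, its rate was at least 6.90-fold higher in SB tails. DESeq2 did not call this window (adjusted p = 0.90), while it called the whole gene (adjusted p = 2.13e-06).

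Within Notch1 both systems had insertions in the 3′ part of the gene. By the exons of the RefSeq transcript used, which has 34, intron 2 held 19 PB tail insertions of the windows in 10 tails and 6 SB tail insertions in 5 tails. Intron 30 held 8 PB tail insertions in 6 tails and 12 SB tail insertions in 9 tails. Introns 27 and 31 held 4 and 5 PB tail insertions and 4 SB tail insertions each. All 8 SB tail insertions of introns 27 and 31 had the orientation of the gene, as had 3 of 12 in intron 30. The window at the gene start, hit in 10 PB tails, was hit in no SB sample. The insertions of the gene body were nearly even in orientation, with 26 of 51 in PB tails and 22 of 40 in SB tails on the strand of the gene. The differences between introns were not tested.

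**Figure D3:**
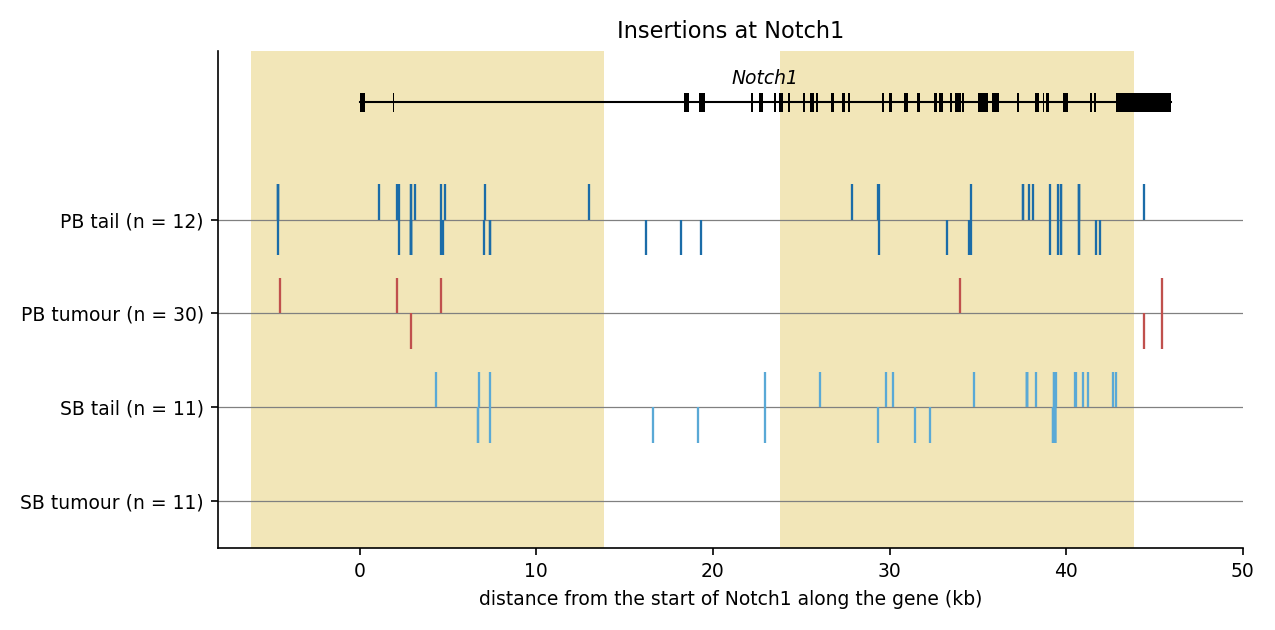
Insertions at Notch1 by distance from the gene start along the gene (x axis, kb) for the 4 groups; ticks above a line are insertions with the orientation of the gene and ticks below it the opposite, shading marks the 4 chosen windows, and black boxes are exons. The 11 SB tails and the 12 PB tails all carry insertions in the gene, and the line of the 11 SB tumours is empty.

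Genes of the epidermis are described next. Of 46 genes of the epidermis and hair follicle, 5 overlapped a chosen window (10.9%): Dsg3, Dsp, Egfr, Grhl2 and Trp63. Of all 19708 protein-coding genes 101 did (0.512%). In the comparison class of at least 4 tails and at least 3 tumours, 2 of the 46 genes overlapped a window (4.35%), against 0.781% of all coding genes. A share above that of all coding genes is thus not particular to the chosen windows. Long genes meet more windows, and the median length was 29.5 kb in the list and 17.6 kb over all coding genes. Trp63 (208 kb), Egfr (162 kb) and Grhl2 (131 kb) were far longer than the list median. Dsp (47.3 kb) and Dsg3 (31.0 kb) were nearer to that median. In the list of dermis, bone and cartilage 4 of 50 genes overlapped a window (Gli3, Nfia, Nfib and Tgfbr2), in the T lineage and myeloid list 2 of 20 (Bcl11b and Notch1), and among genes of cell adhesion and cytoskeleton 1 of 27 (Fat1). No gene did in the lists of muscle and tendon (20 genes), of vessel and nerve (17), of growth factor, Wnt, Hippo and TGF-beta signalling (26) and of the B lineage (27). The B lineage list is tied to the rule, because 18 of its 27 genes overlapped a window hit in no PB tail and at least 4 PB tumours, where 10.8% of all coding genes did. Of the dermis, bone and cartilage list 9 genes overlapped such a window, among them Nfia and Tgfbr2, which also overlapped a chosen one. The lists were drawn up with earlier results of these data known, so these counts describe the windows and carry no test.

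**Figure D4:**
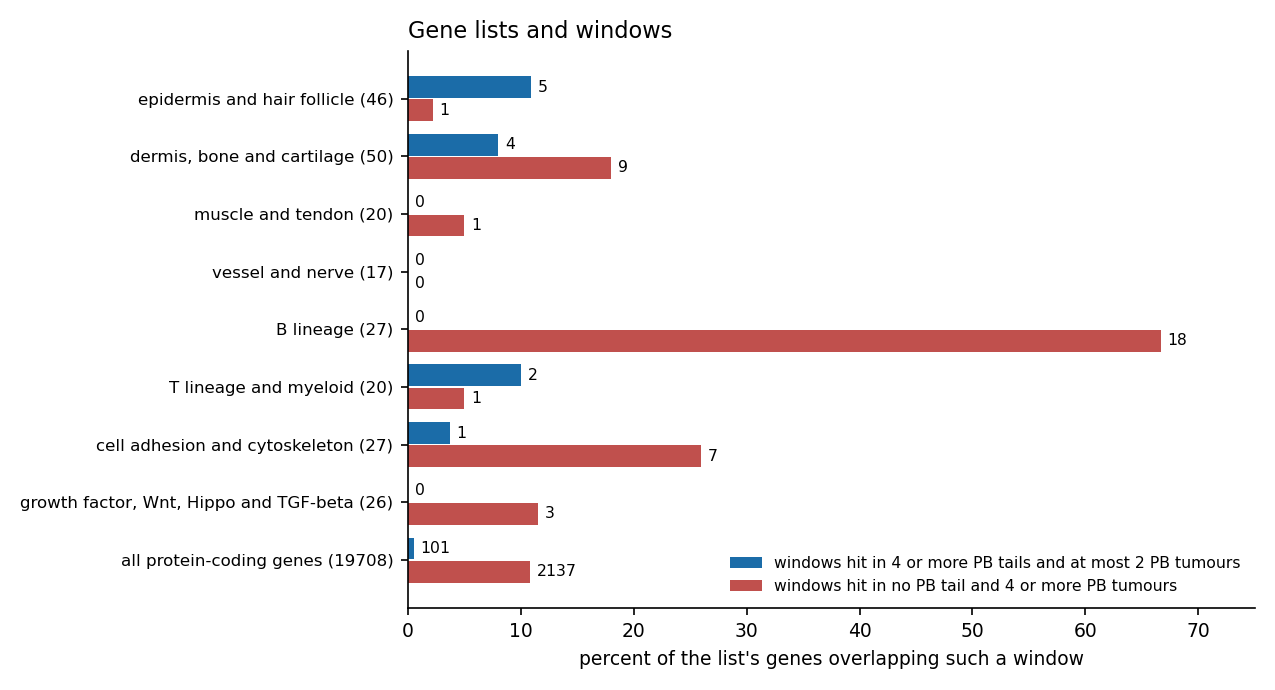
Percent of the genes of each list (list size in brackets) that overlap a window hit mainly in PB tails (blue) or a window hit in no PB tail and at least 4 PB tumours (red); the numbers at the bars are genes. The epidermis list has 5 genes in the former and 1 in the latter, the B lineage list 0 and 18.

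Trp63 encodes p63, the transcription factor that keeps stratified epithelia such as the epidermis in being. It lies at chr16:25683763-25892088 and was overlapped by 4 chosen windows in its introns 3 and 4. These windows held 24 PB tail insertions at 21 sites, in 10 of 12 tails (lowest 0, median 1, highest 6), and 3 insertions in 3 of 30 PB tumours. Intron 4 alone held 14 tail insertions in 6 tails. Over the whole gene, PB tails had 43 insertions in 12 of 12 samples, and PB tumours had 16 in 13 of 30. The 2 groups overlapped there, as single tails with 1 insertion and tumours with up to 3 occurred. A further pair of windows lay in the neighbouring gene Tprg, hit in 8 of 12 tails (10 insertions) and 2 tumours. In SB, the Trp63 windows held 1 tail and 2 tumour insertions. The whole gene held 11 insertions in 7 SB tails and 5 in 4 SB tumours, a log2 difference of 0.76 (SE 0.68, edgeR adjusted p = 0.80).

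**Figure D5:**
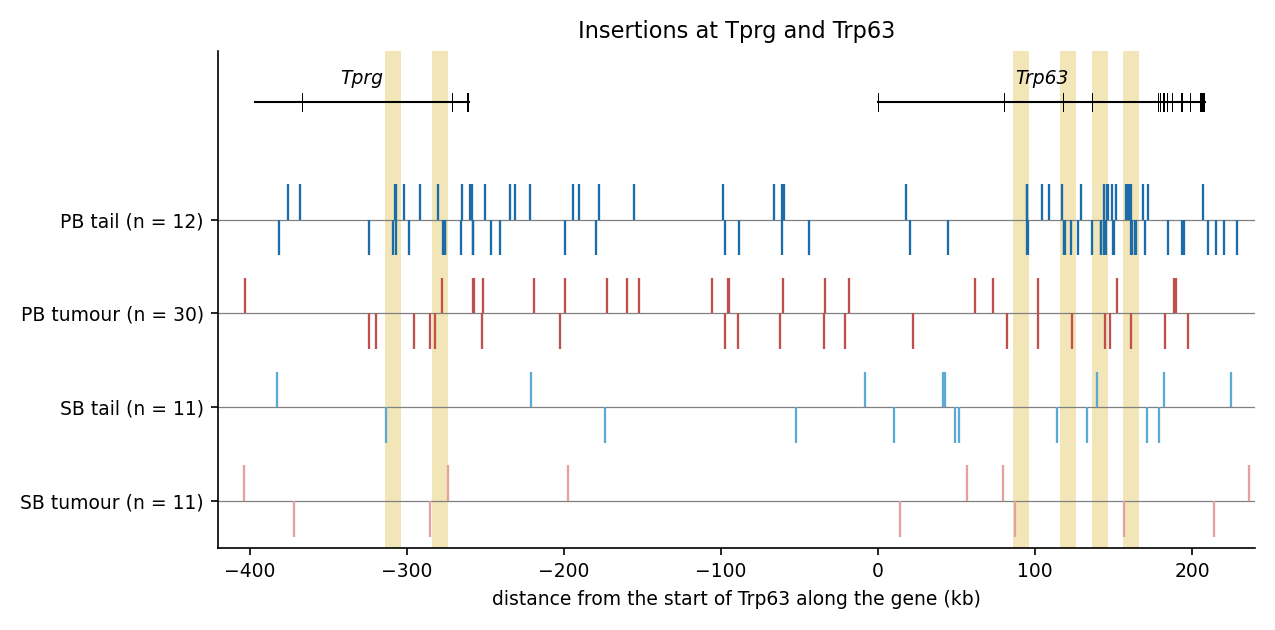
Insertions between Tprg and Trp63 by distance from the start of Trp63 along the gene (x axis, kb) for the 4 groups; ticks above and below a line are the orientations, shading marks the chosen windows, and black boxes are exons. PB tail insertions gather within the shaded introns 3 and 4 of Trp63, where the 30 PB tumours have 3 insertions.

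The other genes of the epidermis list with a chosen window were Grhl2, Dsg3, Dsp and Egfr. Grhl2, a transcription factor of epithelial cells at chr15:37232821-37363569, had 2 windows of its own with 10 insertions in 7 tails, and the window chr15:37160000-37169999, at 62822 bases from the gene, was hit in 5 tails. The 3 windows together were hit in 10 of 12 PB tails and 1 of 30 PB tumours, and in no SB sample. Over the whole gene Grhl2, 7 of 12 PB tails and 7 of 30 PB tumours had an insertion. In SB the whole gene held 7 insertions in 4 tails and 3 in 3 tumours (log2 difference 0.77, SE 0.74, edgeR adjusted p = 0.80). Dsg3, a desmoglein that joins keratinocytes, was hit in 6 tails by 8 insertions, all in intron 1, with 7 to 115 reads and in no PB or SB tumour over the whole gene. The whole Dsg3 gene was also hit in 3 SB tails. With a window at 8179 bases from the desmoglein gene Dsg4, this locus was hit in 8 PB tails, 1 PB tumour and 1 SB tail. The window chr18:20180000-20189999, whose closest gene is Dsg1c at 57341 bases, was hit in 6 tails and 1 PB tumour. The window of Dsp, the desmosomal plaque protein, was hit in 5 tails by 7 insertions and in 1 PB tumour. Intron 1 of Dsp held 5 of the 7, and over the whole gene 6 PB tails and 2 PB tumours had an insertion. Egfr, the epidermal growth factor receptor, was hit in 4 tails and in no PB tumour within its window, while over the gene 9 tails and 12 PB tumours had an insertion.

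Fat1, an atypical cadherin, had 2 windows in introns 1 and 2 with 10 insertions at 10 sites in 8 tails and 1 insertion in PB tumours. Over the gene, PB tails had 32 insertions in 11 of 12 samples and PB tumours had 10 in 10 of 30. SB tails had 11 insertions in 7 samples and SB tumours 3 in 3, and the difference did not pass (log2 1.31, SE 0.73, edgeR adjusted p = 0.59). Within the windows alone SB had 1 tail and 2 tumour insertions.

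Several transcription factor genes also had chosen windows, and they are put together here after their values were seen, with no test as a set. Nfib and Nfia, members of the nuclear factor I family, had 3 and 2 windows, counting for Nfib one that ends 174 bases from the gene. The windows of Nfib were hit in 9 of 12 PB tails and 4 PB tumours, and those of Nfia in 7 tails by 17 insertions and in 4 PB tumours. Trps1, a zinc finger repressor of hair and cartilage development, had 2 windows hit in 7 tails by 12 insertions and in 2 PB tumours. The window of Gli3, a transcription factor of the Hedgehog pathway, was hit in 5 tails by 5 insertions with up to 135 reads and in no PB tumour. The window of Bcl11b, a zinc finger protein of T cells and skin, was hit in 4 tails, each time in intron 1. These windows are small parts of long genes. Over the whole gene, 23 of 30 PB tumours had an insertion in Nfia, 15 in Nfib, 25 in Trps1, 10 in Gli3 and 8 in Bcl11b, against 9, 11, 11, 9 and 7 of 12 PB tails. The windows of Nfia, Nfib, Trps1 and Bcl11b that overlap the gene body held no SB insertion.

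Tgfbr2 encodes a receptor of TGF-beta. Its window was hit in 4 PB tails and 2 PB tumours. Over the whole gene 7 of 12 PB tails and 18 of 30 PB tumours had an insertion. In SB, 2 tails had 2 insertions and 7 tumours had 9 (log2 difference -1.82, SE 0.77), with an unadjusted p = 0.0176 and an adjusted p = 0.39 in edgeR.

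The other windows among the 25 hit in most tails lay in or near genes of various functions. The gene Vav3 had 3 windows hit in 8 tails (16 insertions) and 3 PB tumours. The window of Bcl2, the inhibitor of apoptosis, was hit in intron 1 in 5 tails, all with separated names, and in no PB tumour. The window of Atp1b3, a subunit of the sodium pump, was hit in 6 tails by 7 insertions, in 1 PB tumour, in 2 SB tails and in no SB tumour. The windows of Rab27a, which acts in vesicle transport, and of Aopep, an aminopeptidase, were each hit in 5 tails and in no PB tumour. The window of the uncharacterized 9530077C05Rik was hit in 6 tails and 2 PB tumours. These genes as a whole were also hit in PB tumours. Of 30 PB tumours, 22 had an insertion in Vav3, 10 in Bcl2, 8 in Atp1b3, 8 in Rab27a, 19 in Aopep and 4 in 9530077C05Rik, against 11, 8, 9, 6, 12 and 7 of 12 PB tails. A window hit in 6 tails and 0 PB tumours overlapped the non-coding Gm11412, with 1 of its 7 tail insertions inside that gene. Other windows hit in 6 tails lay at 33277 bases from Rbbp8 (0 PB tumours) and at 4170 bases from Sostdc1, a secreted antagonist of BMP and Wnt signals (1 PB tumour). Another window hit in 6 tails lay far from any gene (2 PB tumours, nearest coding gene Mctp2). A window hit in 5 tails and no PB tumour overlapped the non-coding Gm31845, with Ets2 as the nearest coding gene. Of its 8 tail insertions 1 lay inside Gm31845. Another window hit in 5 tails and no PB tumour lay at 37235 bases from Gm34087, with Arhgef28 as the nearest coding gene.

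Over all chosen windows, SB tails had more insertions than SB tumours, and Notch1 accounted for most of the gap. SB tails had 83 insertions in the windows and SB tumours 38, or 0.522 and 0.239 per window, against 0.223 and 0.193 over all windows. An SB tail hit 44 windows (27.7%), where 19.2% of all windows were hit in an SB tail. An SB tumour hit 32 windows (20.1%), where 16.7% of all windows were hit in one, and 94 windows were hit in no SB sample. The comparison class of at least 4 tails and at least 3 tumours was higher still. Of its windows 38.3% were hit in an SB tail and 28.9% in an SB tumour, with 0.678 and 0.503 insertions per window. The excess over all windows is thus not particular to the chosen ones. The share of a sample's insertions in the windows was 0.0878%, 0.154% and 0.354% in SB tails (lowest, median, highest) and 0.0266%, 0.0989% and 0.134% in SB tumours, and the groups overlapped. Without the 4 Notch1 windows, the remaining 155 windows held 47 SB tail and 38 SB tumour insertions. The mean share then was 0.0959% ± 0.0365 (SD, n = 11) in SB tails and 0.0914% ± 0.0374 (SD, n = 11) in SB tumours, where with them the SB tails had 0.170% ± 0.0807 (SD, n = 11). The windows hit in at least 3 SB tails were 3, and all overlap Notch1.

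No gene of the windows other than Notch1 passed the SB test. Among the 31 genes tested, 20 had a positive log2 difference (higher in tails) and the median was 0.35, against -0.01 over all 1193 genes. The genes tested include Gm37013, Gm38666 and Gm38667, overlapping entries of the same locus with nearly the same insertions. Their differences were 0.41, 0.35 and 0.35, so this locus counts more than once and sets the median. TMM normalization moved the median of all genes to 0.19. At an unadjusted p under 0.05, 2 of the 31 passed, Notch1 and Tgfbr2, which differ in direction, and 105 of all 1193 genes did.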

How the data were processed

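Insertions were those of 64 mice, sequenced from splinkerette PCR products of transposon ends (QiSeq). The authors deposited 385883 lines, each with a position, a strand and a count of reads. These read counts are raw and not normalized, and the lowest was 2. Positions are on mm10, as the submitters' processing notes state. The aligner, the insertion caller and their filters are not given in the sources used here, so their effect on low read counts was not tested. A per-sample column of normalized coverage (1 column) was not used.

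Sex chromosomes and chromosome 14 were left out, which kept 301615 lines. Windows were cut at multiples of 10 kb of the deposited position. PB positions lay at either strand's edge of the same TTAA, so an insertion was counted once per sample, window and motif site (TTAA or TA within 5 bp, found for 99.1% of PB and 99.9% of SB lines). This gave 48533 insertions in PB tails (2060 to 7423 per sample), 158259 in PB tumours (764 to 10885), 50807 in SB tails (2540 to 7149) and 43848 in SB tumours (761 to 8792). Genes and sequences were those of RefSeq for GRCm38.

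SB tails and SB tumours were compared in R 4.3.3 with the edgeR 4.0.16 quasi-likelihood test on insertions per sample, with the insertion total as library size, over every window or gene with at least 10 SB insertions and Benjamini-Hochberg adjustment at 0.05. DESeq2 1.42.0, TMM, presence per sample, read minimums and other limits were alternatives. The SE of a log2 difference was not estimated by the fit. It is the size of the difference divided by the square root of the F statistic of the test. The labels do not say whether mice shared a litter, and p-values measure the spread between these samples. Intervals and floors cover counting error only, and the floors only that of the SB tumour count. Python 3.11.15 with pandas 2.3.3 was used for the rest.

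The windows, gene lists and tests were chosen with earlier results of these data known. The windows named were the 25 hit in most PB tails, all hit in at least 3 SB tails and all that overlap a listed gene. The genes Tprg and Dsg4 and the comparison without Notch1 were chosen after their values had been seen.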

Additional observations from a re-analysis of the deposited data

How the results depend on the processing

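The number of windows depended on the limits of the rule. Against 159 windows, it was 88 with at least 10 reads per insertion (62 of them among the 159), 272 with 20 kb windows, 44 with a minimum of 5 tails, 825 with a minimum of 3 tails and 61 with no tumour allowed. It was 2 with the 5 tails of joined names and 29 with the 7 tails of separated names, since the minimum of 4 tails was kept. Leaving out 1 tail gave 97 (PB tail 4) to 134 windows. Moving positions to the TTAA (158), at least 5 reads (123), moved edges (165) and at most 1 tumour (115) stayed within 1.5 times.

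For SB windows, edgeR called 8 of 23. The counts were 48 of 241 with a minimum of 5 insertions (3 of them chosen windows, all of Notch1), 2 with TMM, 1 with presence per sample, 1 with joined names and 6 with at least 10 reads. They were 0 in edgeR with a minimum of 1 insertion (492 at an unadjusted p under 0.05) and 0 in DESeq2 (0 unadjusted). The Notch1 window lost its call in these last 2, with adjusted p = 0.30 and 0.90 and log2 differences of 4.12 and 3.41 (4.11 in the report), and kept its direction throughout. For SB genes, 11 were called, and 7 with a minimum of 1 insertion, 2 with DESeq2 and 0 with presence per sample in edgeR (9 unadjusted). Notch1 as a gene lost its call under presence per sample only (adjusted p = 0.15) and kept a positive log2 difference between 3.08 and 4.91 in every alternative.

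Of the tail insertions in the windows, 83.2% lay within 5 kb of a gene body (72.4% elsewhere) and 60.1% in protein-coding genes (52.9% elsewhere), where 70.3% lay in any gene. The ratio of median reads, inside to outside, was 1.14, and 1.07 after scaling to each tail's read total and 1.19 without positions shared with another sample. The SB share differed by 0.0790 percentage points between tails and tumours, and by 0.00447 without the Notch1 windows. No paired analysis was possible because replicate numbers follow the order of accession and the labels pair no tail with a tumour. A window with few SB insertions limits what could be tested.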
